A study of Mus musculus with 10 samples.

Results

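Luminal epithelial cells of the mouse prostate were compared between castrated and intact animals, on 3 arrays each of the 10 arrays in the series, over 30142 genes that could be named from a single-symbol row. Both groups were males carrying the Hoxb13-rtTA and TetO-H2BGFP transgenes, in which a Hoxb13-driven transactivator switches on a histone-bound green fluorescent protein when doxycycline is present. Intact mice were untreated, and their age at sorting is not given in the labels. Castrated mice had both testes removed at 12 weeks of age and were left for 6 weeks so that the prostate regressed. All mice, the controls too, drank doxycycline at 2 mg/ml for 1 week before they were killed. Cells were sorted as positive for the reporter and for CD24, intermediate for CD49f and negative for CD45, F4/80 and CD11b, so only cells that carried the Hoxb13-driven reporter were measured. The arrays are labelled as biological replicates, but nothing says if mice were pooled for them, and the p-values below measure spread among these samples only. The 4 arrays of castrated mice given testosterone for 4 weeks entered the fit for its estimate of spread and are not described.

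Prostate luminal cells make the proteins and small molecules of prostatic fluid, and androgen acting through its receptor keeps that secretory state. Secreted proteins enter the endoplasmic reticulum (ER) through the translocon, are glycosylated, folded and quality-checked there, travel to the Golgi in COPII-coated carriers and leave by granules, while COPI carriers return ER proteins from the Golgi. After castration most luminal cells of the gland are lost, and those that persist are known to be low in secretory products and able to rebuild the gland once androgen returns.

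Values are log2 intensities after RMA, a method that subtracts background, equalises the arrays and summarises the probes of a row. Precision is limited by how many arrays there are. Arrays of a group correlated at 0.99 to 0.996 across genes within the intact and at 0.987 to 0.992 within the castrated group, against 0.964 to 0.974 between the groups. The rows that serve as background controls centred on 3.03, and their highest value, 6.40 in castrated replicate 3, is used here as a wide limit of background. In all, 20311 genes had both group means at or under it. Luminal markers were high in both groups: Krt18 was 17.09 ± 0.21 (SD, n = 3) in intact and 18.51 ± 0.25 in castrated arrays, Epcam 14.01 ± 0.10 and 14.60 ± 0.09, and the epithelial cadherin Cdh1 15.81 ± 0.19 and 16.18 ± 0.34. Hoxb13 itself, whose promoter drives the sort reporter, was 10.54, 10.19 and 10.43 in the intact arrays and 7.93, 7.75 and 7.54 in the castrated arrays, a change of -2.65 ± 0.42 (SE; limma adjusted p = 0.00416).

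Marker lists of other cells were measured beside these. Of 24 myeloid markers 4 were called higher and none lower, their summed linear intensity was 805 to 1222 in intact and 1384 to 2185 in castrated arrays, and Ptprc, Adgre1 and Csf1r, all defining genes of leukocytes or macrophages, stayed near background in both groups. The 4 were Cd14, Ctss, Aif1 and Itgam, and only Cd14 was called without intact replicate 1 or without intact replicate 2, and Cd14 and Ctss without castrated replicate 2. Of 15 basal markers 2 were called higher (1 without each of intact replicates 1, 2 and 3, castrated replicates 1 and 3 and regenerated replicate 1), with a summed intensity of 1865 to 2128 against 2471 to 5176, and the basal regulator Trp63 was near background at 3.97 ± 0.05 and 3.98 ± 0.12. Among 18 stromal markers none was called higher and 2 lower (1 without intact replicates 1 or 3 or castrated replicates 1 or 2), with a sum of 3067 to 7292 in intact and 390 to 840 in castrated arrays that came in the intact arrays mostly from Dcn (-4.70 ± 0.61), while the fibroblast collagens Col1a1, Col1a2 and Col3a1 and the muscle genes Acta2 and Myh11 were near background. None of 14 endothelial, 7 neuroendocrine, 17 lymphocyte and 2 erythrocyte markers was called, and the neuroendocrine sum was 93 to 94 and 95 to 103, with all 7 at background. The lymphocyte sum was 277 to 524 against 573 to 3697, in the castrated arrays mostly from Cd3e (7.05 ± 1.46 and 10.45 ± 1.91; limma adjusted p = 0.0507, and called higher without castrated replicate 3 or regenerated replicate 4), with Cd2, Cd4, Cd5 and Cd8a near background. Of 11 seminal vesicle markers 1 was lower (3 without regenerated replicate 3 and 2 without intact replicate 3 or regenerated replicate 4), with sums of 4598 to 66192 and 15823 to 50897 that overlap, and uroplakins, with 2 of 6 called higher, had sums of 165716 to 229720 and 196970 to 357393 that overlap too. Myeloid, lymphocyte, neuroendocrine and basal sums thus lay higher, and the stromal sum lower, in every castrated than in any intact array, and their part in the results below was not tested. The median level of the stromal markers, unlike their sum, was 3.68 to 3.75 in intact and 3.83 to 3.93 in castrated arrays.

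Of the 30142 genes, limma with Benjamini-Hochberg adjustment over all of them called 2414 at an adjusted p under 0.05, which is 8.01%. Of these, 1452 (4.82% of genes) were higher and 962 (3.19%) lower in castrated cells. These 3 percentages are the background for every count of a gene list below. They include the many genes at or under the background limit in both groups. Of 9828 genes with a group mean above that limit 1806 were called (18.4%), and of 19046 protein-coding genes 1915 (10.1%). A list made up mostly of expressed genes should therefore be read beside these larger shares too. The count fell to 1019 without intact replicate 1, to 1200 without intact replicate 2 and to 1473 without castrated replicate 2, so single arrays decide how many genes pass. Without regenerated replicate 4, which enters the estimate of spread only, it rose to 3271 (10.9%), with 1881 higher (6.24%) and 1390 lower (4.61%). Higher calls were 609 without intact replicate 1 and 696 without intact replicate 2. Lower calls were 410, 504, 501 and 585 without intact replicate 1, intact replicate 2, castrated replicate 2 and castrated replicate 3. When arrays were centred on their 75th percentile, 1004 genes were higher and 1121 lower, so that the share of higher calls went from 60.1% to 47.2% and the median change of all genes from 0.04 to -0.06. The balance between rises and falls therefore depends on the scaling. In RNA from many sorted cells, fewer cells of a type and less RNA per cell cannot be told apart, here and in every result below.

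The levels of the called genes are given as a description, since the direction of a call limits the level a gene can start from. Genes called higher had a median level of 6.13 in intact and 7.83 in castrated arrays and a median change of 1.22 log2, and 792 of the 1452 had an intact mean under the background limit. Genes called lower had median levels of 8.85 and 7.04 and a median change of -1.38, and 379 of the 962 ended under the limit. A change of at least 4 log2 was seen in 48 genes that rose and 58 that fell. Differences of genes that began or ended there may be understated.

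**Figure D1:**
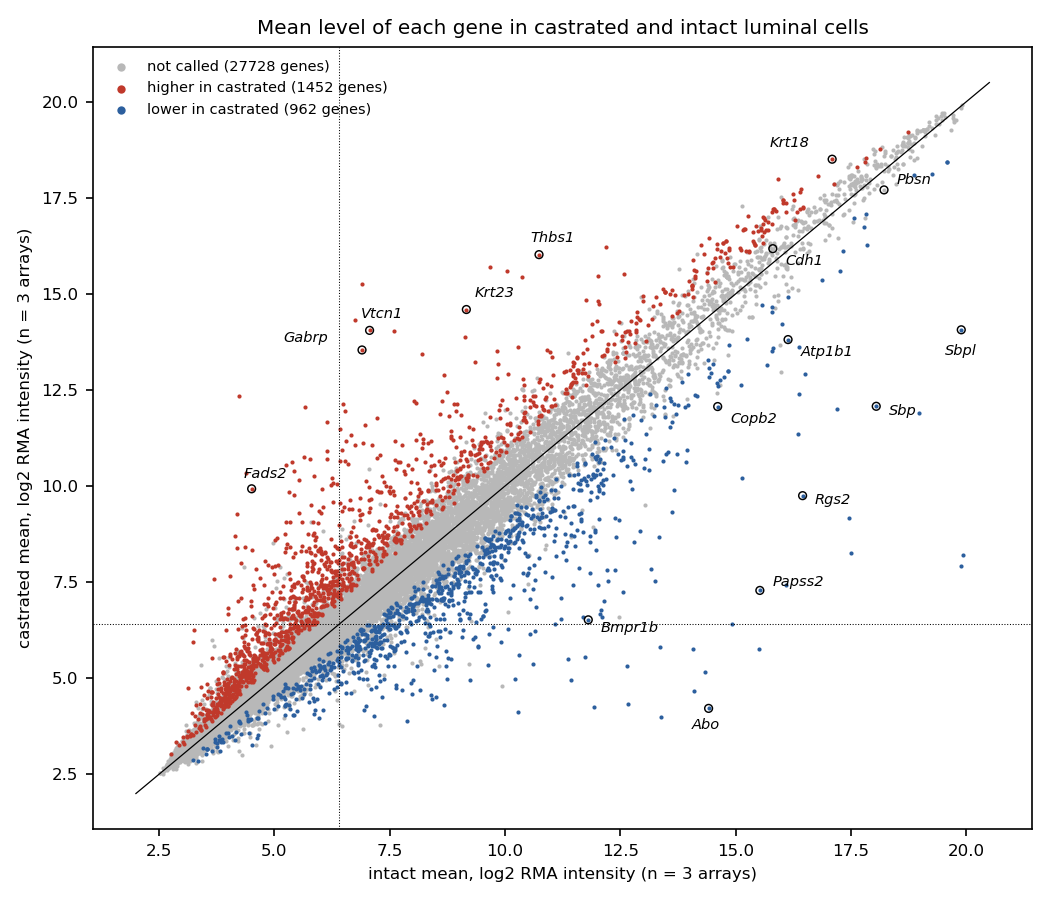
Mean log2 RMA intensity of each of 30142 genes in castrated arrays (y axis, n = 3) against intact arrays (x axis, n = 3), with called genes in colour, the line of equal level and dotted lines at the background limit of 6.40. The 58 genes that fell by at least 4 log2 lie well below the line of equal level, and many of the 1452 genes that rose lie left of the dotted vertical line.

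Gene lists by function, 67 in all, are described by how many measured members were called in each direction and by the median change, for which 0.04 log2 is the value over all genes. All lists were drawn up with earlier results of these data known, so their counts and medians are a description and no independent evidence of direction. Every gene named below as risen or fallen kept its call when any 1 of the 10 arrays was left out and under each other setting tried on it except a test against a least change of 1 log2, unless the text gives arrays without which the call was lost. The setting with only genes above the background limit could not be tried on genes with both means under it. It covered 294 of the 339 called genes drawn by the naming rule. Some of those less stable genes lost it under other settings as well: Aif1, Cpt1b, Irf7, Isg15, Krt8, Mavs, Mthfs and Ndrg1 in the fit on the 6 arrays compared, Cpt1b, Irf7, Krt8, Krt14, Mtrr and Pmaip1 with arrays centred on the median, Aimp2, Atg10, Cpt1b, Irf7, Isg15, Itgam, Krt14, Maf, Mavs, Mthfs, Mtrr and Pmaip1 with arrays centred on the 75th percentile, Mavs, Mtrr and Pmaip1 with the replicate block, and Pmaip1 without the mean-variance trend. List counts that move by more than 1.5 times without 1 array are given with the list, except upward moves from 0 or 1 to 1 or 2, the only upward ones in 17 counts. Taken by theme with each gene counted once, 102 of 262 genes of the secretory route fell (38.9%) and 3 rose (1.1%), while 83 of 316 genes of defence (26.3%) and 47 of 222 genes of epithelial structure (21.2%) rose and 8 and 5 fell. Metabolic genes had 26 rises and 27 falls among 321, and genes of growth signalling 40 rises and 21 falls among 292.

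**Figure D2:**
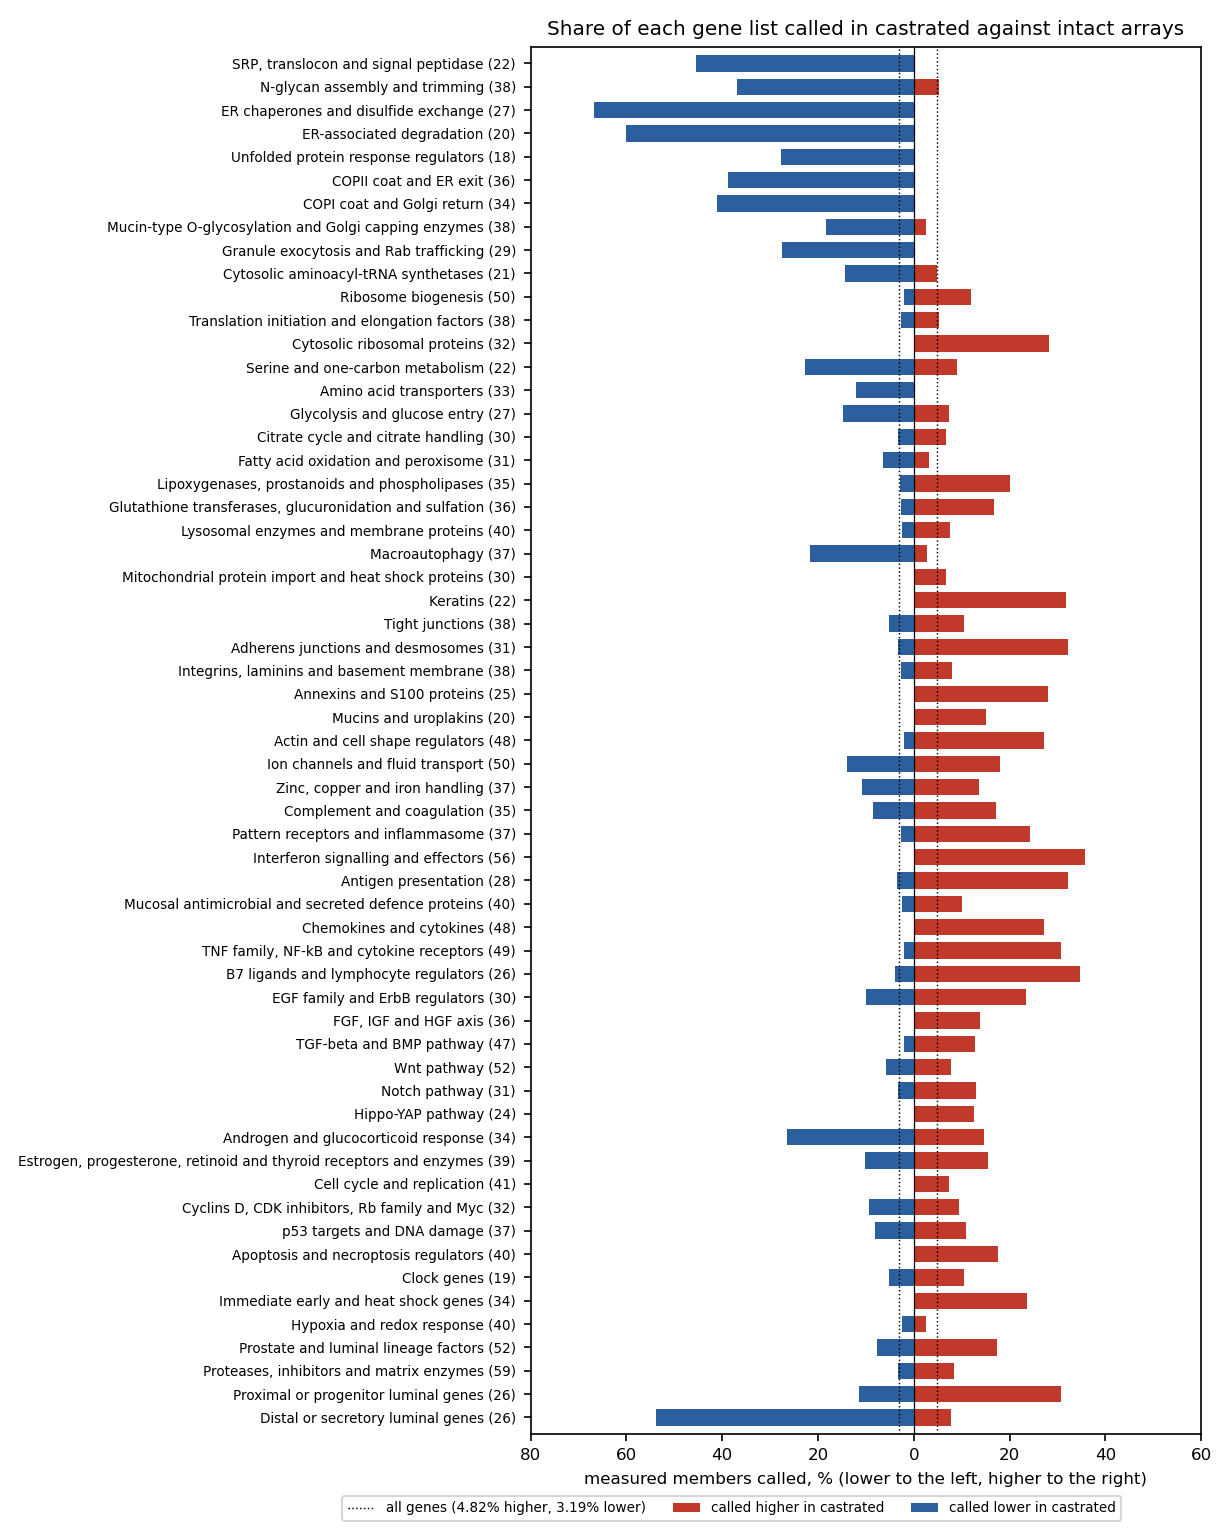
Percentage of the measured members of each gene list other than the markers of other cells (number in brackets) called higher (right, red) or lower (left, blue) in castrated against intact arrays, with dotted lines at the shares over all genes, 4.82% higher and 3.19% lower. Bars to the left are longest for ER folding, ER-associated degradation and secretory luminal genes, and bars to the right for interferon, B7 ligand, antigen presentation, keratin and desmosome lists.

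Genes of the secretory route fell at each of its stages from ER entry to Golgi return. Across the 7 lists from the translocon to COPI, 87 of 195 genes fell (44.6%) and 2 rose, the median change was -0.94 log2, and 173 of the 195 changes were negative. Tram1, which helps nascent chains into the ER membrane, was 16.22, 16.20 and 16.72 in the intact arrays and 14.04, 13.16 and 13.67 in the castrated arrays. The groups were separated by more than 2 log2 at their closest, and the change was -2.76 ± 0.38 (limma adjusted p = 0.00183). Of 22 genes of the signal recognition particle, translocon and signal peptidase 10 fell and none rose, with a median of -0.96. Srp68, a protein of the particle that finds signal peptides, changed by -2.34 ± 0.34, its receptor Srpr by -2.11 ± 0.32, and the signal peptidase subunits Spcs3 and Sec11c by -1.94 ± 0.35 and -1.65 ± 0.31. Their calls numbered 5 without intact replicate 1, intact replicate 2 or castrated replicate 2, and 6 without castrated replicate 3.

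Protein folding held the largest share of falls. Of 27 ER chaperones and disulfide exchange enzymes 18 fell and none rose (median -1.42), and 10 fell without intact replicate 1, intact replicate 2 or castrated replicate 2. Dnajc3, a co-chaperone of the ER lumen, was 13.63, 13.60 and 13.26 in intact and 10.98, 10.73 and 10.80 in castrated arrays, with no overlap (-2.66 ± 0.31; limma adjusted p = 0.000869). P4hb, protein disulfide isomerase, went from 15.82, 15.64 and 15.88 to 14.24, 12.93 and 13.35 (-2.28 ± 0.36), and castrated replicate 2 was the lowest. Its oxidase Ero1a changed by -2.01 ± 0.30 and the lectin chaperone Calr by -1.82 ± 0.31. The second oxidase, Ero1b, changed by -3.07 ± 0.75 and lost its call without any 1 of the 6 arrays compared (limma adjusted p up to 0.0955, without intact replicate 3). ER-associated degradation, which removes misfolded proteins, had 12 of 20 genes lower and none higher (median -1.44), and 7 without intact replicate 1. Edem3 and Edem2, mannosidase-like proteins that mark glycoproteins for removal, changed by -3.34 ± 0.45 and -2.32 ± 0.38, and Herpud1, an ER membrane protein of this pathway, by -2.54 ± 0.29.

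Regulators of the unfolded protein response, the pathway that sets ER folding capacity, had fewer calls: 5 of 18 fell and none rose, with a median of -0.40, and 3 fell without intact replicate 1, castrated replicate 2 or castrated replicate 3 and 8 without regenerated replicate 4. The kinase Eif2ak3 (PERK) changed by -1.04 ± 0.17 log2, the site-1 protease Mbtps1 by -1.43 ± 0.27 and the secretory cell factor Bhlha15 by -0.89 ± 0.17, the last under the background limit in both groups. Xbp1, which drives ER chaperone genes, was 13.57, 13.56 and 14.20 in intact and 13.24, 12.90 and 13.53 in castrated arrays (limma adjusted p = 0.299), and its activating enzyme Ern1 was 11.64 ± 0.13 and 12.03 ± 0.02 (limma adjusted p = 0.572). Atf6, another sensor of the ER, was 12.02 ± 0.11 and 11.13 ± 0.12 (limma adjusted p = 0.067), and Atf4 was 10.55 ± 0.18 and 11.06 ± 0.35 (limma adjusted p = 0.297). These 4 did not pass, and the processing of Xbp1 mRNA and Atf6 protein is not measured by these arrays.

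The promoters of some of these ER genes hold the ER stress response element, here searched as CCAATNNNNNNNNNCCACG on both strands in the window from 250 bases before to 50 after each gene's start, from RefSeq on build GRCm38.p6. It was found in 29 of 17970 tested genes with a window (0.161%) and in 10 of 42 genes of ER folding and degradation (23.8%), of which 9 were among the 27 called lower and 1, Creld2, among the 15 not called. With 1 array left out, 6 to 10 of the 10 were in genes called lower, 6 of 16 called without intact replicate 1 and all 10 among 31 called without regenerated replicate 4. A match describes these letters only and says nothing of binding. The 5 called genes below, chosen for their match and for calls that held with any array left out, are shown with Creld2, each on its gene's strand with 20 bases on either side and the fixed letters of the element in capitals.
Hspa5: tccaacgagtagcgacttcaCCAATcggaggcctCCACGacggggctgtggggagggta
Dnajc3: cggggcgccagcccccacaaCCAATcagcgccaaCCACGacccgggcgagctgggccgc
Pdia6: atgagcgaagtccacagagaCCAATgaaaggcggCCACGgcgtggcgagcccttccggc
Calr: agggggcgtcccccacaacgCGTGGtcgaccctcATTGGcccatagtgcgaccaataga
Hsp90b1: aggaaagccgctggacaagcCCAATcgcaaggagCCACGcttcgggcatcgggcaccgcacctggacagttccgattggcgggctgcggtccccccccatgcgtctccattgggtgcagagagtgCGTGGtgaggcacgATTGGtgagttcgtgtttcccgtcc
Creld2: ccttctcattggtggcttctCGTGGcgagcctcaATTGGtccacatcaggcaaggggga
The stretches lie at chr2:34772005-34772063 for Hspa5, chr14:118937807-118937865 for Dnajc3 and chr12:17266471-17266529 for Pdia6 on the plus strand, and at chr8:84847055-84847113 for Calr and chr10:86705513-86705676 for Hsp90b1 on the minus strand. That of Creld2 lies at chr15:88819500-88819558 on the plus strand, and all 6 lie before the gene's start. In Hspa5, Dnajc3 and Pdia6 the element reads in the direction of the gene, in Calr and Creld2 it reads on the opposite strand, and Hsp90b1 has 1 of each.

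The genes behind these promoters encode central folding factors of the ER. Hspa5 (BiP), the main ER Hsp70, was 14.74 ± 0.10 in intact arrays and 12.85 ± 0.37 in castrated arrays (-1.90 ± 0.24; limma adjusted p = 0.00121). Hsp90b1, the ER Hsp90, changed by -1.26 ± 0.19 and the disulfide isomerase Pdia6 by -1.57 ± 0.27. Creld2, an ER stress-responsive chaperone, was 14.34, 14.28 and 15.34 and 13.71, 11.80 and 12.34 (limma adjusted p = 0.0572), with groups that do not overlap but a wide spread in both.

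Traffic between the ER and the Golgi followed the same direction. Of 36 genes of the COPII coat and ER exit 14 fell and none rose (median -0.89), although the count was 4 and 6 with intact replicate 1 or 2 left out, and 8 and 9 with castrated replicate 2 or 3 left out. The cargo receptor Surf4 was 10.41, 10.25 and 10.46 in intact and 8.87, 8.32 and 8.60 in castrated arrays (-1.77 ± 0.24; limma adjusted p = 0.00179), Preb, which starts coat assembly, changed by -1.68 ± 0.24 and Sec23ip by -1.70 ± 0.32. Mia2, of the family that loads large cargo, lay apart at 4.95, 4.14 and 6.29 and 6.64, 7.89 and 9.13 (limma adjusted p = 0.0686), and was picked out here after its values were seen. In the COPI and Golgi return list 14 of 34 fell and none rose (median -0.81), and 9 without intact replicate 1, intact replicate 2 or castrated replicate 3. The coat subunit Copb2 was 14.73, 14.52 and 14.58 and 12.47, 11.69 and 12.05 (-2.54 ± 0.31; limma adjusted p = 0.000973). Copz2, another coat subunit, changed by -2.99 ± 0.38, the tether Uso1 by -2.70 ± 0.30, the retrieval receptor Kdelr3 by -3.31 ± 0.37 and Arfgap3, which ends the coat cycle, by -1.97 ± 0.24.

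Genes of glycosylation and granules were also called lower. N-glycan assembly and trimming had 14 of 38 lower and 2 higher (median -0.93), and 8 lower without intact replicate 1 and 9 without castrated replicate 2 or 3. Rpn1 and Magt1, subunits of the oligosaccharyltransferase complexes that attach N-glycans, changed by -2.16 ± 0.36 and -2.12 ± 0.26, and the Golgi mannosidase Man2a1 by -2.15 ± 0.39. Alg14, of the second step of the lipid-linked glycan, rose by 1.18 ± 0.22, whereas the rise of Man1a2, a Golgi mannosidase, at 1.61 ± 0.35, lost its call in 5 of the leave-one-out fits (limma adjusted p up to 0.0701, without castrated replicate 2). Of 38 genes of O-glycosylation and glycan capping 7 fell and 1 rose, around a median of 0.01, and 3 fell without intact replicate 1 or castrated replicate 2 and 4 without intact replicate 2, castrated replicate 3 or regenerated replicates 2 or 3. Galnt18 and Galnt4, of the family that starts mucin-type glycans, changed by -4.68 ± 0.46 and -3.11 ± 0.51, and the blood group transferase Abo by -10.20 ± 0.76. B4galt4, the gene that rose, at 1.26 ± 0.28, lost its call without 4 of the 6 arrays (limma adjusted p up to 0.0962, without intact replicate 1), and 3 rose without regenerated replicate 4. Among 29 granule and Rab genes 8 fell and none rose, led by the granule GTPase Rab3d at 11.44, 11.37 and 11.85 against 9.15, 8.80 and 8.63 (-2.69 ± 0.39; limma adjusted p = 0.00229), with Exph5, a Rab27 effector, at -1.83 ± 0.34. That count was 3 without castrated replicate 2, 4 without intact replicate 1 or castrated replicate 3 and 5 without intact replicate 2.

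**Figure D3:**
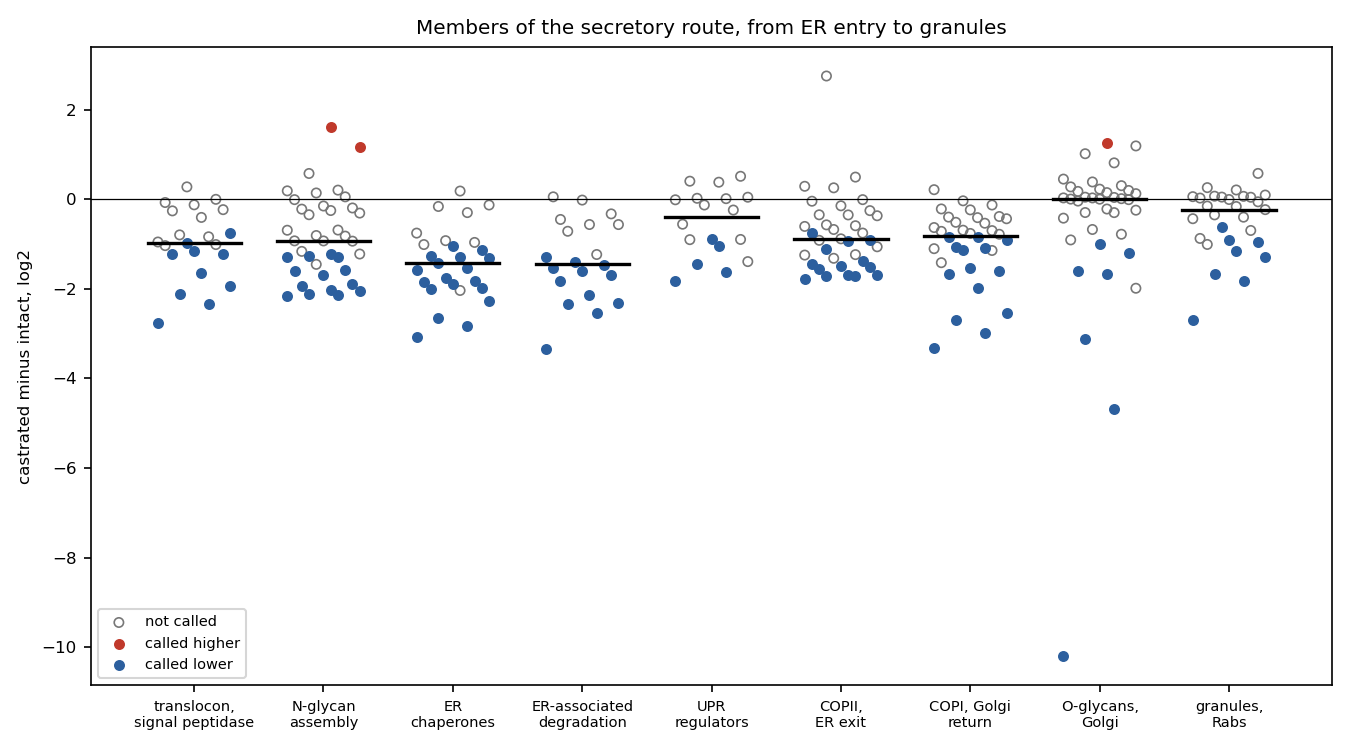
Change of each measured member (castrated minus intact, log2) in 9 lists ordered from ER entry to granules, with called members filled, members not called open and the list's median as a bar. Medians lie between -1.44 and -0.81 for the lists of ER entry, glycan assembly, folding, degradation, COPII and COPI, and nearer 0 for regulators, O-glycans and granules.

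Secreted products make up much of a list of genes of secretory luminal cells, in which 14 of 26 fell and 2 rose (median -3.24). That list, like the others, was assembled with results of these arrays known and is no independent evidence of its direction. Sbp and Sbpl, the spermine-binding protein and its neighbour in name, changed with little spread: Sbp was 18.02, 18.00 and 18.12 in intact and 11.77, 12.29 and 12.17 in castrated arrays (-5.97 ± 0.19; limma adjusted p = 9.67e-08). Sbpl was 19.90, 19.89 and 19.89 and 13.69, 14.43 and 14.08 (-5.83 ± 0.18), and its intact values lie close to 19.93, the highest value in the table. Defb50, a defensin, went from 16.37 ± 0.08 to 12.40 ± 0.50, and Azgp1, a secreted zinc-binding glycoprotein, from 12.06 ± 0.39 to 6.67 ± 0.34. Apof, an apolipoprotein, changed by -5.31 ± 0.52, and Pigr, which carries immunoglobulin A across epithelia, was 15.99 ± 0.60 and 12.97 ± 1.09 (limma adjusted p = 0.0602). The 2 that rose were Tgfb2 and Pmaip1, and Pmaip1 lost its call without any 1 of the 6 arrays compared or regenerated replicate 3 (limma adjusted p up to 0.133, without intact replicate 2).

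Of the 8 largest called falls, ranked without predicted, non-coding and olfactory genes, 7 were in secreted proteins, and the other was in Abo, given above. Spink1, a trypsin inhibitor, was 19.89, 19.89 and 19.91 in intact arrays, again close to the highest value in the table, and 7.31, 6.20 and 10.25 in castrated arrays (-11.98 ± 0.76; limma adjusted p = 2.79e-05). The protease inhibitor Spink5 changed by -9.76 ± 0.77, the WAP domain protein Wfdc3 by -9.43 ± 0.60, the secretoglobins Scgb2b7 and Scgb2b20 by -9.41 ± 1.08 and -9.18 ± 0.98, Msmb, a seminal plasma protein, by -9.25 ± 0.75 and Tgm4, the prostate transglutaminase, by -8.68 ± 0.84. Genes with large falls also included intracellular and membrane proteins. Rgs2, which dampens G protein signalling, was 16.49, 16.62 and 16.24 in intact and 10.12, 9.77 and 9.36 in castrated arrays (-6.70 ± 0.52; limma adjusted p = 7.01e-05). Cdcp3 was 19.10, 18.80 and 19.02 and 14.26, 10.59 and 10.83 (-7.08 ± 1.05), with castrated replicate 1 above the other two. Kcnk3, an acid-sensitive potassium channel, changed by -6.18 ± 0.90, the ubiquitin ligase gene Rnf186 by -5.52 ± 0.93 and Asrgl1, an asparaginase, by -5.33 ± 0.73.

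Genes of protein synthesis, which feeds the secretory route, had 18 rises and 5 falls among 141. Of 71 cytosolic ribosomal protein genes listed only 32 were measured. All 32 had a positive change, 9 of them called, with a median of 0.42 log2, and median levels of 12.39 to 12.40 in intact and 12.93 to 13.19 in castrated arrays. Several of the 9 calls were lost when arrays were centred on the median or on the 75th percentile. Only 1 was called without intact replicate 1, intact replicate 2 or castrated replicate 3, 2 without castrated replicate 1 or regenerated replicate 2, 3 without intact replicate 3 or castrated replicate 2 and 4 without regenerated replicate 3, whereas 15 were without regenerated replicate 4. Ribosomal protein genes have many near-identical pseudogene copies, so single rows are uncertain. Ribosome biogenesis had 6 of 50 higher and 1 lower (median 0.26), but the fall, in Bop1, was lost without any intact array or castrated replicates 2 or 3, and none was higher without intact replicate 1, intact replicate 2 or castrated replicate 3, 1 without castrated replicate 2, 2 without regenerated replicates 2 or 3 and 3 without intact replicate 3 or regenerated replicate 1. Npm1, nucleophosmin, was 15.42, 15.46 and 15.36 and 15.92, 16.34 and 16.59 (0.87 ± 0.21; limma adjusted p = 0.033, and lost without any of 7 arrays taken in turn, at up to 0.112 without intact replicate 1). Translation factors had 2 of 38 higher and 1, the inhibitor Eif4ebp1, lower. None was called without intact replicate 1, and none was higher without any 1 of the 6 arrays other than intact replicate 3. Just 1 was higher without regenerated replicates 2 or 3, 3 were lower without castrated replicate 1, and 4 were higher and 4 lower without regenerated replicate 4. Of 21 cytosolic tRNA synthetases and partners 3 fell and 1 rose, none was called lower without intact replicate 1 and 1 without castrated replicate 2 or 3, and the rise, in Aimp2, was lost without intact replicate 1, intact replicate 2 or castrated replicate 3.

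Amino acid and one-carbon metabolism had more falls than rises. Of 22 genes of serine and one-carbon metabolism 5 fell and 2 rose, and both rises, in Mthfs and Mtrr, were lost without intact replicate 1, intact replicate 2 or any 1 castrated array, and that of Mtrr also without regenerated replicates 2 or 3. Phgdh, which opens serine synthesis, was 11.16, 11.20 and 11.65 in intact and 8.96, 8.44 and 8.25 in castrated arrays (-2.79 ± 0.26; limma adjusted p = 0.000226). Gnmt, which methylates glycine, changed by -3.07 ± 0.62, the glycine cleavage gene Amt by -2.24 ± 0.40 and the mitochondrial folate enzyme Mthfd2 by -2.18 ± 0.25. Of 33 amino acid transporters 4 fell and none rose, 1 without intact replicate 1 or castrated replicate 2, 2 without castrated replicate 1 and 7 without regenerated replicate 4. Slc1a5, a glutamine carrier, was the one that kept its call throughout (-1.61 ± 0.31). The amino acid response element, searched as TGATGNAAT on both strands, was in 170 of 17970 genes with a promoter window (0.946%). It was in 2 of 34 genes with a window in the lists of serine and one-carbon metabolism and tRNA synthetases, neither of them called.

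Glucose genes changed in both directions, while the share of citrate genes called was near that over all genes. Of 27 genes of glycolysis and glucose entry 4 fell and 2, Pfkfb3 and Aldoc, rose. No rise was called without intact replicate 2, the rise of Aldoc was also lost without intact replicate 1 or 3 or castrated replicate 1 or 2, and 7 fell without regenerated replicate 4. The glucose carrier Slc2a12 was 10.58, 9.64 and 11.71 in intact and 6.41, 6.14 and 6.09 in castrated arrays (-4.43 ± 0.80; limma adjusted p = 0.00791). Hexokinase 2, Hk2, changed by -1.80 ± 0.29, the phosphofructokinase Pfkm by -0.93 ± 0.18 and its regulator Pfkfb4 by -1.42 ± 0.24. In the opposite direction, Fbp1, fructose bisphosphatase of gluconeogenesis, was 5.30, 5.31 and 5.55 and 11.37, 10.26 and 10.23 (5.23 ± 0.37; limma adjusted p = 4.01e-05). Citrate cycle and citrate genes had 2 of 30 higher and 1 lower, Pcx, which was lost without intact replicate 1. Idh1, the cytosolic isocitrate dehydrogenase, was 9.58, 9.51 and 10.40 and 13.70, 12.86 and 14.02 (3.70 ± 0.39), and malic enzyme Me1 changed by 2.63 ± 0.38. Both make NADPH in the cytosol.

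Lipid genes held some of the largest and tightest rises. Fads2, the desaturase that starts long polyunsaturated fatty acid synthesis, was 4.56, 4.30 and 4.66 in intact and 10.11, 9.87 and 9.80 in castrated arrays (5.42 ± 0.16; limma adjusted p = 9.67e-08). Its intact values lie under the background limit and its castrated values well above it. Of 35 genes of lipoxygenases, prostanoids and phospholipases 7 rose and 1 fell, and 4 rose without intact replicate 1, intact replicate 3 or castrated replicate 1. Lpl, lipoprotein lipase, was 3.94, 4.08 and 4.00 and 6.97, 7.44 and 6.10 (2.83 ± 0.26). The fall was in Lipg, endothelial lipase, at -1.30 ± 0.26, which lost its call without intact replicate 2 or castrated replicate 2 (limma adjusted p = 0.0509 and 0.0536). Peroxisomal and mitochondrial fatty acid oxidation had 1 of 31 higher and 2 lower, but 6 lower without regenerated replicate 4. The rise, in Cpt1b, was lost without any 1 intact array or castrated replicates 1 or 2. A single fall was called without any 1 intact array, castrated replicates 2 or 3 or regenerated replicates 2 or 3. That of the peroxisomal oxidase Acox3 (-3.28 ± 0.59) kept its call throughout.

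Conjugation, lysosome and autophagy lists differed. Of 36 genes of glutathione transfer, glucuronidation and sulfation 6 rose and 1 fell, but 2 rose without intact replicate 1 or 2 and 3 without castrated replicate 1 or 3, and 3 fell without regenerated replicate 4. Ugt2b34, a glucuronosyltransferase, changed by 2.05 ± 0.35 and Gsta2 by 1.42 ± 0.17, while Papss2, which makes the sulfate donor, was 14.80, 15.07 and 16.71 and 7.37, 7.36 and 7.13 (-8.24 ± 0.66; limma adjusted p = 7.99e-05). Macroautophagy had 8 of 37 lower and 1 higher, 3 lower without intact replicate 1 or 2, 4 without castrated replicate 2 and 5 without castrated replicate 3. Atg4a, which processes Atg8 proteins, was 9.36, 9.22 and 9.36 and 7.86, 7.85 and 7.84 (-1.47 ± 0.19; limma adjusted p = 0.00145), and Wipi1 and Atg9a, of early autophagosome membranes, changed by -1.47 ± 0.19 and -1.10 ± 0.20. The rise was in Atg10, at 1.22 ± 0.31, lost without 5 of the 6 arrays (limma adjusted p up to 0.151, without intact replicate 1). Of 40 lysosomal genes 3 rose and 1 fell, with 1 rise left without intact replicate 1 or 2, and the fall was in the proton pump subunit Atp6v0a1 at -1.90 ± 0.27. The falls numbered 3 without regenerated replicate 2 and 6, against 4 rises, without regenerated replicate 4, so the balance of this list rests on that array.

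Membrane transport genes changed in both directions. Of 50 ion channel and fluid transport genes 9 rose and 7 fell, around a median of 0.05 that changes sign with the scaling, and 5 rose without intact replicate 1 or 2. Slc26a4 (pendrin), a chloride and bicarbonate exchanger, was 11.02, 11.01 and 12.24 in intact and 5.07, 5.26 and 4.53 in castrated arrays (-6.47 ± 0.78; limma adjusted p = 0.000973). All castrated values lay within the background range. Trpv6, an apical calcium channel, changed by -5.87 ± 1.06, the sodium-proton exchanger Slc9a2 by -4.58 ± 0.69, the calcium-activated chloride channel Ano1 by -2.05 ± 0.36 and the sodium channel subunit Scnn1a by -1.29 ± 0.21. Atp1b1, the beta subunit of the sodium pump, was 16.28, 16.08 and 16.05 and 13.99, 13.37 and 14.08 (-2.32 ± 0.24; limma adjusted p = 0.000386).

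The largest called rises, ranked without predicted, non-coding and olfactory genes, were in genes of other classes. Pnliprp1 and Pnliprp2, lipases of the pancreatic family, changed by 8.35 ± 0.83 and 8.11 ± 0.85, and Pnliprp2 was 12.71, 9.88 and 14.48 in castrated arrays, a spread of more than 4 log2 within the group. Alox12, a lipoxygenase, changed by 7.57 ± 0.67, and Vtcn1, a B7 family ligand, was 7.12, 6.70 and 7.38 in intact and 14.14, 13.97 and 14.05 in castrated arrays (6.99 ± 0.29; limma adjusted p = 1.34e-06). The GABA receptor subunit Gabrp changed by 6.64 ± 0.54, the secreted ribonuclease Rnase1 by 6.44 ± 0.45, the methyltransferase Inmt by 6.38 ± 0.98, the chemokine Cxcl15 by 5.63 ± 0.77, Neurl3 by 5.53 ± 0.39 and Nxf7 by 5.10 ± 0.57.

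Other transporters and channels rose from low levels. Car2, a cytosolic carbonic anhydrase, was 5.23, 4.97 and 5.54 in intact and 11.49, 8.88 and 11.30 in castrated arrays (5.31 ± 0.78; limma adjusted p = 0.00248) and castrated replicate 2 was the lowest of its group. Slc34a2, a sodium-phosphate carrier, was 7.08, 6.29 and 6.21 and 12.61, 10.98 and 12.25 (5.41 ± 0.70), and Car13 changed by 2.86 ± 0.34. Clca3a2 was 8.81, 8.43 and 13.77 in castrated arrays against 4.40 ± 0.10 in intact ones, with castrated replicate 3 far above the other two.

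Zinc is concentrated in prostatic fluid, and its carriers moved both ways. Of 37 genes of zinc, copper and iron handling 5 rose and 4 fell, and 2 fell without intact replicate 1 and 8 without regenerated replicate 4. The zinc importers Slc39a8 and Slc39a4 changed by 2.61 ± 0.35 and 1.81 ± 0.29. Slc39a7, which moves zinc out of the ER, changed by -2.16 ± 0.25 and Slc39a11 by -1.16 ± 0.22. Slc30a4, a zinc exporter into vesicles, was 8.81, 8.61 and 8.22 and 6.36, 6.16 and 6.16 (-2.32 ± 0.51), and lost its call without intact replicate 1 or 2 or castrated replicate 2 or 3 (limma adjusted p = 0.0826, 0.0691, 0.0625 and 0.0601). Ferroportin, Slc40a1, the only known cellular iron exporter, was 4.93, 4.89 and 5.20 and 8.58, 8.16 and 9.04 (3.59 ± 0.24; limma adjusted p = 3.66e-05).

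**Figure D4:**
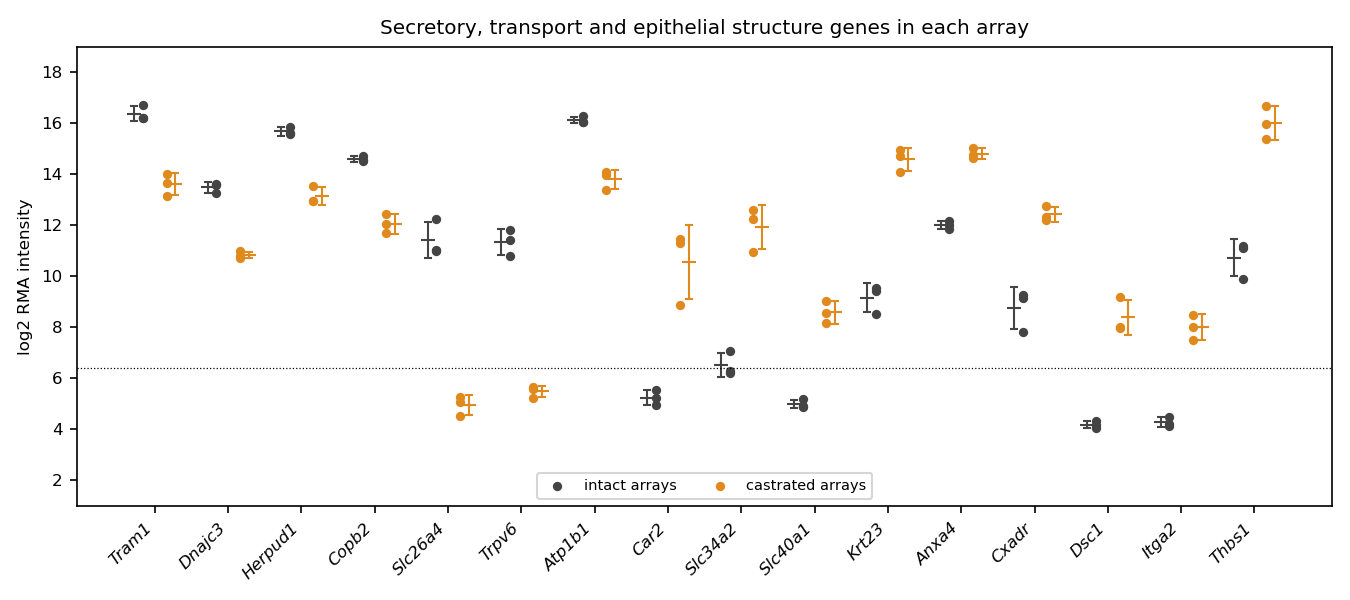
Log2 RMA intensity of 16 genes of secretion, transport and epithelial structure in each intact (grey) and castrated (orange) array, with the group mean and SD beside the points and a dotted line at the background limit of 6.40. All 16 were called, and the groups of arrays do not overlap in them, nor in any of the 2414 called genes. Over all 30142 genes, 5253 lay wholly higher and 3456 wholly lower in castrated arrays. The castrated values of Slc26a4 and Trpv6 and the intact values of Car2, Slc40a1, Dsc1 and Itga2 lie under the line.

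Epithelial structure genes rose in several classes. Of 22 keratins 7 rose and none fell (median 0.32), 3 without intact replicate 1 and 4 without intact replicate 2. Krt18, the luminal type I keratin, was 17.16, 17.26 and 16.86 in intact and 18.65, 18.65 and 18.21 in castrated arrays (1.41 ± 0.18; limma adjusted p = 0.00119). Its partner Krt8 was 16.25, 16.13 and 15.10 and 17.41, 17.52 and 16.68 (1.37 ± 0.35; limma adjusted p = 0.0364) and lost its call without 5 of the 6 arrays or regenerated replicate 3, at up to 0.126 without castrated replicate 2. Krt23 was 9.54, 9.44 and 8.51 and 14.98, 14.72 and 14.09 (5.43 ± 0.57; limma adjusted p = 0.000458), which put it among the 20 largest rises outside predicted, non-coding and olfactory genes. The basal keratin Krt5 was 4.76 ± 0.09 and 5.17 ± 0.31, under the background limit in both groups, and Krt17, also counted among basal markers, rose within that range (1.31 ± 0.16). Krt14, another basal keratin, was called higher too. It lost its call without any 1 of the 6 arrays compared or regenerated replicate 1 (limma adjusted p up to 0.175, without intact replicate 1).

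Junction and adhesion genes included some with low intact levels. Of 31 genes of adherens junctions and desmosomes 10 rose and 1 fell (median 0.37), and 6 rose without intact replicate 2. The desmosomal cadherin Dsc1 was 4.17, 4.34 and 4.05 in intact and 7.98, 8.01 and 9.20 in castrated arrays (4.21 ± 0.30; limma adjusted p = 4.01e-05), and Dsc2 changed by 3.07 ± 0.42 and the plakophilin Pkp4 by 1.58 ± 0.21. Perp, a desmosome protein and the one that fell, at -1.39 ± 0.30, lost its call without intact replicate 1 (limma adjusted p = 0.0887), castrated replicate 1 (0.0629) or castrated replicate 2 (0.0652). Of 38 tight junction genes 4 rose and 2 fell, the falls, in Cldn10 and Cgnl1, lost without intact replicate 1 or 2 or castrated replicate 2, with 1 left without castrated replicate 3. Cxadr, a junctional adhesion receptor, was 9.16, 9.29 and 7.81 and 12.20, 12.35 and 12.76 (3.68 ± 0.39; limma adjusted p = 0.000458), and Pard6b, of the polarity complex, changed by 1.71 ± 0.33. Integrins and basement membrane genes had 3 of 38 higher and 1 lower, a share near the background, and the fall, in Itgb5, was lost without any 1 intact array or castrated replicates 1 or 2 (limma adjusted p up to 0.124, without intact replicate 1). The 3 were Itgb6 at 5.28, 5.19 and 5.28 and 9.01, 10.22 and 7.93 (3.81 ± 0.45), the collagen receptor subunit Itga2 at 3.72 ± 0.30 and Itgav, the partner of Itgb6, at 1.49 ± 0.29.

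Actin and annexin genes rose as well. Of 48 actin and cell shape regulators 13 rose and 1 fell (median 0.41), 7 without intact replicate 1 or castrated replicate 2 and 8 without intact replicate 2 or castrated replicate 1. Tagln2, an actin-bundling protein, was 7.86, 8.33 and 8.77 in intact and 11.54, 11.22 and 10.59 in castrated arrays (2.79 ± 0.35; limma adjusted p = 0.00125). The tropomyosins Tpm4 and Tpm1 changed by 2.16 ± 0.23 and 1.43 ± 0.26, and the fall was in the non-muscle myosin Myh10 (-1.20 ± 0.15), joined by 2 others without regenerated replicate 4. Of 25 annexins and S100 proteins 7 rose and none fell (median 0.53), 4 without intact replicate 1 or castrated replicates 1 or 3. The membrane-binding Anxa4 was 11.85, 12.02 and 12.17 and 15.05, 14.76 and 14.64 (2.80 ± 0.20; limma adjusted p = 4.01e-05), Anxa13 changed by 4.17 ± 0.51 and Anxa3 by 3.33 ± 0.57. Thbs1, thrombospondin 1, a secreted matrix protein outside these lists, was 11.21, 11.10 and 9.91 and 16.70, 15.98 and 15.39 (5.28 ± 0.62; limma adjusted p = 0.000847), and Csrp2, an actin-associated LIM protein, changed by 5.05 ± 0.51.

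Defence genes rose in most lists. Beside them, the myeloid marker sum was 805 to 1222 in intact and 1384 to 2185 in castrated arrays with Ptprc and Adgre1 near background, and the lymphocyte sum was 277 to 524 and 573 to 3697 with Cd2, Cd4 and Cd8a near background and Cd3e not. Of 56 genes of interferon signalling and effectors 20 rose and none fell (median 0.86), 9 without intact replicate 1 and 10 without intact replicate 2. The list's median was 5.91, 5.92 and 6.68 in the intact arrays and 7.36, 7.56 and 7.78 in the castrated arrays, so intact replicate 3 stood nearer to the castrated group. Ifitm3, a membrane protein that restricts viral entry, was 4.92, 5.90 and 6.76 and 10.11, 9.48 and 11.24 (4.41 ± 0.51; limma adjusted p = 0.000793), again with intact replicate 3 the highest of its group. The immunity GTPases Igtp and Irgm1 changed by 2.93 ± 0.42 and 1.37 ± 0.25 and Xaf1 by 2.17 ± 0.30. Members of the signalling chain were mixed. The receptor Ifnar1 was 7.45 ± 0.15 and 7.64 ± 0.28, the kinase Jak1 10.64 ± 0.44 and 10.26 ± 0.22 and the transcription factor Stat2 9.34 ± 0.46 and 9.34 ± 0.30, and none of the 3 passed. Irf9, the partner of Stat2 in DNA binding, rose by 1.45 ± 0.31 (limma adjusted p = 0.0187) and the factor Irf7 by 1.14 ± 0.30 (0.0419), but Irf9 lost its call without intact replicates 1 or 2 or castrated replicates 1 or 3 and Irf7 without these or regenerated replicate 3. Ifit1, a classical induced gene, did not pass, at 6.70, 6.49 and 7.44 in intact and 7.26, 7.21 and 8.12 in castrated arrays (limma adjusted p = 0.512).

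The interferon-stimulated response element, searched as TTTCNNTTTC on both strands of the same promoter windows, was in 692 of 17970 genes (3.85%) and in 19 of the 44 members of the interferon list that have a window (43.2%). It was in 6 of 13 members called higher (46.2%) and in 13 of 31 not called (41.9%). Without intact replicate 1 or 2 it was in 3 of 7 called (42.9%) and 16 of 37 not called (43.2%), and over all arrays left out in turn its share among called members was 33.3% to 55.6%. Genes of both kinds are shown, each with 20 bases on either side and the fixed letters of the element in capitals.
Igtp: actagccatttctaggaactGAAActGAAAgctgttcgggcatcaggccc
Isg15: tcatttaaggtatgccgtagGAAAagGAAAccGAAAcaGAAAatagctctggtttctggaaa
Ifit1: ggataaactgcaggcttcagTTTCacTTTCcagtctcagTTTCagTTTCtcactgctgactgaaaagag
Rsad2: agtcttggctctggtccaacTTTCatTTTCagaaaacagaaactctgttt
They lie at chr11:58199502-58199551 (plus strand), chr4:156200855-156200916 (minus strand), chr19:34640765-34640833 (plus strand) and chr12:26456543-26456592 (minus strand), all before the gene's start. Igtp rose. Isg15, a ubiquitin-like protein whose promoter holds 3 overlapping matches, was 6.36, 6.20 and 6.96 and 7.40, 7.34 and 7.47 (0.90 ± 0.22; limma adjusted p = 0.0316, and up to 0.131 without intact replicate 1 or 2, with the call also lost without any 1 castrated array). Rsad2, an antiviral enzyme, was 7.14 ± 1.04 and 8.14 ± 0.62 (limma adjusted p = 0.536).

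Sensors of microbes and their partners rose from low levels. Of 37 pattern receptors and inflammasome genes 9 rose and 1 fell (median 0.42), 5 rose without intact replicate 1, and the fall, in Mavs (-0.68 ± 0.18), was lost without 8 arrays taken in turn, at up to 0.151 without castrated replicate 3. Casp4, the caspase that senses lipopolysaccharide, was 5.54, 5.76 and 4.96 in intact and 9.58, 11.16 and 10.41 in castrated arrays (4.96 ± 0.54; limma adjusted p = 0.000545). The surface receptor Tlr4 changed by 1.99 ± 0.24, its partner Ly96 by 2.17 ± 0.27 and its co-receptor Cd14, also a myeloid marker, by 1.95 ± 0.35. Of 28 antigen presentation genes 9 rose and 1 fell, 5 without intact replicate 1 or 2, and the fall was in Calr. The immunoproteasome subunit Psmb10 was 6.76, 6.97 and 7.96 and 10.68, 10.51 and 11.01 (3.50 ± 0.34), and the class I-like H2-M3 changed by 1.26 ± 0.21. The myeloid and lymphocyte marker sums were higher in the same arrays, and their part was not tested.

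Signals to other cells rose in the chemokine, cytokine and B7 lists. Of 48 chemokines and cytokines 13 rose and none fell, with 9 left without intact replicate 1. Cxcl17, a mucosal chemokine, was 6.27, 6.28 and 5.88 in intact and 10.98, 9.56 and 11.59 in castrated arrays (4.57 ± 0.61; limma adjusted p = 0.00159), and castrated replicate 2 was the lowest of its group. Of 49 genes of the TNF family, NF-kB and cytokine receptors 15 rose and 1 fell, and 8 rose without any 1 of the intact arrays. Tnfrsf12a, the receptor for TWEAK, changed by 4.09 ± 0.53, the death ligand Tnfsf10 by 1.86 ± 0.11 with a castrated mean still under the background limit, and Il13ra1 by 2.79 ± 0.46. Tnfrsf21, the one that fell (-1.92 ± 0.49), lost its call without any of 7 arrays taken in turn, at up to 0.138 without intact replicate 1, while 3 fell without regenerated replicate 4. Of 26 B7 ligands and lymphocyte regulators 9 rose and 1 fell, with Lgals9 at 6.15, 6.16 and 6.97 and 9.99, 9.38 and 9.31 (3.13 ± 0.33) and the tryptophan-degrading enzyme Ido1 at 2.22 ± 0.27. Arg2, an arginase and the one that fell (-2.21 ± 0.48), lost its call without 4 of the 6 arrays, at up to 0.0914 without intact replicate 1.

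Complement and coagulation genes went both ways. Of 35 measured 6 rose and 3 fell, and only 1 fall was called without any 1 of the 6 arrays. F3, tissue factor, the starter of coagulation, was 5.29, 5.74 and 4.91 in intact and 9.84, 9.65 and 10.04 in castrated arrays (4.53 ± 0.44; limma adjusted p = 0.000307). The plasminogen activator Plat changed by 3.28 ± 0.42. Cd55 and Cd59a, membrane inhibitors of complement, moved in opposite directions: Cd55 was 9.03, 9.70 and 9.29 and 13.13, 13.69 and 12.86 (3.88 ± 0.59), and Cd59a was 11.42, 11.42 and 11.59 and 7.88, 7.57 and 6.83 (-4.05 ± 0.36; limma adjusted p = 0.00018). Of 40 mucosal antimicrobial and defence genes 4 rose and 1, Defb50, fell, with Ang4 at 1.07 ± 0.18 within the background range.

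**Figure D5:**
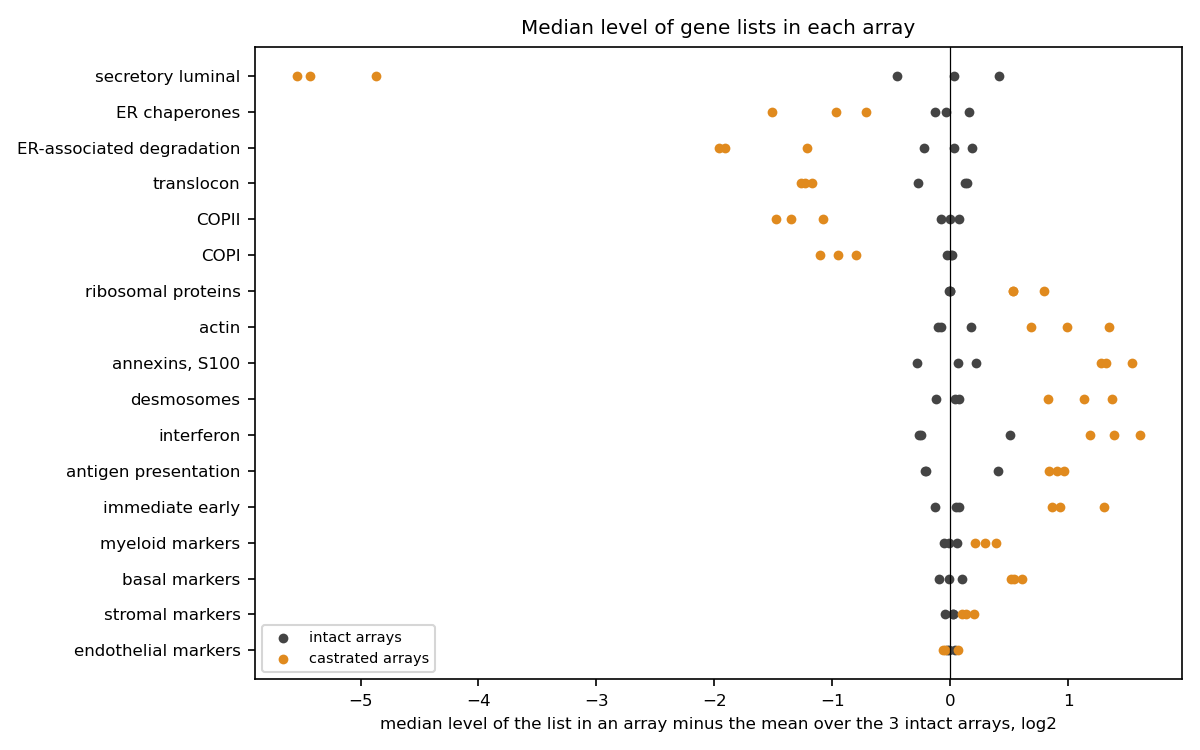
Median log2 level of the members of 17 gene lists in each array, with the mean of the 3 intact arrays set to 0 for each list (intact grey, castrated orange). Castrated arrays lie below intact ones in the secretory lists and above them in the ribosomal, actin, annexin, desmosome, interferon, presentation, immediate early, myeloid, basal and stromal lists. Endothelial medians overlap between the groups. Intact replicate 3 is the intact point farthest to the right for interferon and antigen presentation.

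Growth factor genes changed in ligands and receptors. Of 30 genes of the EGF family and its regulators 7 rose and 3 fell, 4 rose without intact replicate 1, intact replicate 2 or castrated replicate 1, and 1 fell without intact replicate 1. The ligand Egf was 7.94, 7.99 and 8.11 in intact and 5.87, 6.02 and 5.79 in castrated arrays (-2.12 ± 0.28; limma adjusted p = 0.00143), whereas the ligands Hbegf and Btc changed by 1.81 ± 0.32 and 1.34 ± 0.23. Egfr, their receptor, was 5.83, 5.48 and 6.59 and 7.81, 7.88 and 7.81 (1.87 ± 0.41; limma adjusted p = 0.0206), and lost its call without 5 of the 6 arrays, at up to 0.0891 without intact replicate 2. Dusp6, a phosphatase that rises with ERK signalling and limits it, changed by 2.93 ± 0.46. Of 36 genes of the FGF, IGF and HGF axis 5 rose and none fell, and 3 rose without intact replicate 1, intact replicate 2 or castrated replicate 2. The HGF receptor Met was 6.86, 6.78 and 6.46 and 8.95, 8.77 and 9.05 (2.22 ± 0.27), Fgfr1 changed by 2.04 ± 0.25 and the ligand Pdgfc by 2.83 ± 0.28.

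In the TGF-beta and BMP pathway 6 of 47 rose and 1 fell, and 3 rose without any 1 of the intact arrays or castrated replicate 1. The ligand Tgfb2 was 6.72, 7.05 and 7.16 in intact and 11.66, 11.84 and 11.31 in castrated arrays (4.62 ± 0.34; limma adjusted p = 5.28e-05). The BMP receptor Bmpr1b was 11.75, 11.92 and 11.75 and 6.37, 6.20 and 6.99 (-5.29 ± 0.41; limma adjusted p = 7.43e-05), while Id1, a target of BMP signalling, was 6.06, 6.24 and 6.10 and 11.54, 12.08 and 9.11 (4.78 ± 0.74). The Wnt list had 4 of 52 higher and 3 lower, with the feedback gene Axin2 at 2.00 ± 0.35, the ligand Wnt4 at 1.22 ± 0.20, and the repressor Tcf7l1 at -1.92 ± 0.32. Without intact replicate 1 or castrated replicate 2 only 1 Wnt gene fell. Of 31 Notch genes 4 rose and 1 fell, 2 rose without intact replicates 2 or 3 or castrated replicate 1, and Notch1 was 5.85, 5.93 and 6.67 and 8.38, 7.74 and 8.31 (1.99 ± 0.30). The fall was in the glycosyltransferase Rfng (-1.61 ± 0.25). Of 24 Hippo pathway genes 3 rose and none fell, among them Amot (1.77 ± 0.16) and the coactivator Wwtr1 (1.47 ± 0.20). The Wwtr1 means lay under the background limit in both groups.

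Hormone response lists were mixed. Of 34 androgen and glucocorticoid response genes 9 fell and 5, Sgk3, Pmepa1, Ndrg1, Cdkn1a and Maf, rose, and 2 rose without intact replicates 1 or 3 and 3 without intact replicate 2. Maf lost its call without any 1 of the 6 arrays compared (limma adjusted p up to 0.0804, without intact replicate 1), Ndrg1 without any 1 intact array (up to 0.107) and Cdkn1a without intact replicates 1 or 3. Fkbp5, a steroid receptor co-chaperone, was 8.50, 7.77 and 8.80 in intact and 5.52, 5.58 and 5.81 in castrated arrays (-2.72 ± 0.39; limma adjusted p = 0.00229), and the secreted androgen-driven Pbsn, probasin, was 17.85, 18.28 and 18.52 and 17.72, 17.44 and 17.96 (limma adjusted p = 0.142). Of 39 genes of estrogen, progesterone, retinoid and thyroid signalling 6 rose and 4 fell. The rises numbered 1 without intact replicate 1 and 2 without intact replicate 2 or castrated replicate 3, and the falls 2 without intact replicate 1 or 2. The estrogen receptor Esr1 was 5.72, 5.93 and 5.76 and 7.43, 7.75 and 7.20 (1.65 ± 0.24; limma adjusted p = 0.00252). The retinoid genes Crabp1, a binding protein, and Aldh1a1, which makes retinoic acid, changed by -5.32 ± 0.71 and -4.28 ± 0.42.

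Cell cycle genes were at background in most cases. Of 41 measured, 39 had both means at or under the limit, 3 were called higher and none lower (2 higher without intact replicate 1), and the proliferation marker Mki67 was 3.87 ± 0.26 and 3.78 ± 0.19. Pcna, the replication clamp, was 10.65, 11.18 and 10.86 in intact and 12.25, 12.29 and 12.38 in castrated arrays (1.41 ± 0.25; limma adjusted p = 0.00731). Among 32 cyclin D, inhibitor, Rb and Myc family genes 3 rose and 3 fell, and 6 fell without regenerated replicate 4. E2f5 was 7.28, 7.31 and 7.93 and 10.10, 9.60 and 9.75 (2.31 ± 0.24), and Cdk6 changed by 2.22 ± 0.38, the cyclin gene Ccng2 by -2.16 ± 0.40 and the Myc antagonist Mxd4 by -1.73 ± 0.27. Cdkn1a (p21), a cell cycle inhibitor, was 8.66 ± 0.55 and 10.60 ± 0.73 (1.94 ± 0.41; limma adjusted p = 0.0167), and 0.0583 and 0.0533 without intact replicates 1 and 3.

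Among stress and death lists, called genes of the immediate early and apoptosis lists only rose, while the p53 and hypoxia lists had both rises and falls. Of 34 immediate early and heat shock genes 8 rose and none fell (median 0.69), 4 without intact replicate 1 and 5 without intact replicate 2 or castrated replicate 1. Fosl1 was 4.51, 4.57 and 4.42 in intact and 7.54, 7.33 and 6.19 in castrated arrays (2.52 ± 0.33; limma adjusted p = 0.00143) and Klf10 changed by 1.52 ± 0.24. Fos was 13.41 ± 0.39 and 13.92 ± 0.28 and Jun 15.55 ± 0.27 and 16.22 ± 0.34, higher in the mean as well, but neither passed. Genes of this kind respond to handling in many tissues, and the part of handling in this list was not tested. Of 40 apoptosis and necroptosis regulators 7 rose and none fell, 3 without intact replicates 1 or 2 or castrated replicate 1 and 4 without intact replicate 3 or castrated replicate 3, with the initiator caspase Casp8 at 1.55 ± 0.27. Of 37 p53 targets and DNA damage genes 4 rose and 3 fell, a set in which the falls were lost without intact replicate 1 or 2 and numbered 1 without any 1 castrated array, and the rises were 1 without intact replicates 1 or 3 and 2 without intact replicate 2 or castrated replicates 1 or 2. Without regenerated replicate 4 these were 7 rises and 5 falls. Plk2, a stress-induced kinase, was 7.73, 7.69 and 7.43 and 11.63, 10.65 and 11.22 (3.55 ± 0.33; limma adjusted p = 0.000245). Of 40 hypoxia and redox genes 1 rose (lost without intact replicate 1 or 2) and 1 fell, but 5 fell without regenerated replicate 4.

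Transcription factors of the prostate lineage also went both ways. Of 52 measured 9 rose and 4 fell. The rises numbered 1 and 2 with intact replicate 1 or 2 left out, 4 without castrated replicates 2 or 3 and 5 without castrated replicate 1, and the falls 2 without intact replicates 1 or 2, castrated replicates 2 or 3 or regenerated replicate 2. Ets2, an ETS factor, was 8.10, 8.31 and 7.83 in intact and 11.49, 11.16 and 10.92 in castrated arrays (3.11 ± 0.27; limma adjusted p = 0.000157), and Tfap2a was 10.79, 10.92 and 10.82 and 8.77, 8.77 and 8.62 (-2.12 ± 0.42). Foxa1, a pioneer factor of luminal cells, was 12.94, 12.79 and 13.26 and 12.52, 11.77 and 11.06 (limma adjusted p = 0.0668), and Sox9 changed by 1.45 ± 0.28 but not past the threshold without intact replicate 1 (0.0589) or 2 (0.0531).

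Genes of proximal or progenitor-like luminal cells, a list drawn up, like the others, with earlier results of these arrays known, had 8 of 26 higher and 3, Psca, Aldh1a1 and Cldn10, lower, and 5 higher without intact replicate 1. Cd44, a hyaluronan receptor, was 5.53, 5.29 and 5.82 in intact and 10.84, 9.46 and 10.14 in castrated arrays (4.60 ± 0.54; limma adjusted p = 0.000836), the squamous envelope protein Sprr1a 4.64, 4.51 and 4.41 and 7.78, 8.79 and 8.42 (3.81 ± 0.36), and Ly6d changed by 2.73 ± 0.37. Psca, a surface antigen of proximal cells, fell instead, from 9.86, 9.96 and 8.89 to 6.68, 7.06 and 6.53 (-2.81 ± 0.42).

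Remaining lists moved in few members. Of 20 mucins and uroplakins 3 rose and none fell, among them Upk3a (5.07 ± 0.63) and Upk1b (5.55 ± 0.58) of the urothelial plaque. Of 59 proteases, inhibitors and matrix enzymes 5 rose and 2 fell, and 4 fell without regenerated replicate 4. Adamts9, a matrix protease, was 4.19, 4.07 and 4.13 in intact and 4.68, 4.78 and 5.27 in castrated arrays, all under the background limit (0.78 ± 0.15; limma adjusted p = 0.00981). Timp4, an inhibitor of metalloproteases, was 14.61, 14.72 and 15.41 and 6.48, 7.26 and 5.48 (-8.51 ± 0.83). Of 30 mitochondrial import and heat shock genes 2 rose and none fell, 1 without intact replicate 1 or 2, and Timm10, a chaperone of the intermembrane space, changed by 2.02 ± 0.25. Of 19 clock genes 2 rose and 1 fell, with no rise without intact replicate 1, 1 without intact replicate 2 or castrated replicate 1, and no fall without intact replicate 2, but 4 rises without regenerated replicate 4.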

How the data were processed

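RNA of sorted luminal cells was hybridised to Affymetrix ClariomD arrays, and the deposited values are log2 intensities that the authors made by RMA with the program Expression Console of Affymetrix (named in the submitters' processing notes), whose version and genome build are not given in the sources used here. Of 65956 rows that are not controls, 30604 carry 1 gene symbol, and each gene was represented by its row with the highest mean over the 10 arrays, which left 30142 genes. limma 3.58.1 in R 4.3.3 (lmFit, eBayes with a mean-variance trend, checked on simulated data) was fitted to all 10 arrays with 3 groups and 7 residual degrees of freedom, and p-values were adjusted over all genes by Benjamini-Hochberg, with calls at 0.05.

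Gene lists are described by counts and medians without a test. The genes named were drawn from, in each list, up to 5 called members per direction with the largest change and any member called against the list's direction, the 20 largest changes each way over all genes (without predicted, non-coding and olfactory genes), and a fixed set of sort and luminal markers; members that did not pass are given by their values. Hspa5, Hsp90b1, Pdia6, Irgm1, Irf7, Irf9, Isg15, Rsad2, Creld2 and Mia2 fall outside this rule or were picked for a promoter match or a value already seen. The comparison and its gene lists were chosen with earlier results of these data known. Alternatives were the fit on 6 arrays, no trend, array weights, 2 centrings, the mean of a gene's rows, only genes above the background limit, a least change of 1 log2, a replicate block, and each array left out in turn.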

Additional observations from a re-analysis of the deposited data

Results flagged for a closer look

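Rows without a single gene symbol were not part of the comparison above and held calls as well. In the same limma fit over all 65956 rows that are not controls, 789 of the 35352 rows with no symbol or with several passed (2.23%), 535 higher and 254 lower in castrated arrays. No gene is named from them.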

How the results depend on the processing

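Array weights raised the count of calls from 2414 to 4258 (2495 higher, 1763 lower), and a test against a least change of 1 log2 lowered it to 216 (125 higher, 91 lower), since it asks for a larger change. Leaving out 1 array at a time gave 1019 to 3271 calls, with 609 to 1881 higher and 410 to 1390 lower. The cause of the change with array weights or with single arrays was not tested. With the replicate number as a block 2715 genes were called. Deviations of arrays of the same number in the intact and castrated groups correlated at r = -0.11, 0.26 and -0.02, and those of different numbers at -0.24 to 0.25. With 3 arrays a group these values cannot decide if the numbers pair the samples. No named gene that was called changed direction under any alternative. Signal over background limits what can be read: 20311 genes lie at or under the background limit in both groups.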
